A study of Mus musculus with 8 samples.

Results

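Smooth muscle and pericyte genes were followed in lumbar intervertebral discs of mice with proteoglycan-induced spondylitis, an autoimmune inflammation of the spine that BALB/c mice develop after immunization with cartilage proteoglycan. The 10 genes were Acta2, Myh11, Tagln, Cnn1, Lmod1 and Mylk, which serve the contractile apparatus of smooth muscle, and Des, Cspg4, Rgs5 and Pdgfrb, which are used to mark pericytes. They were chosen by name, with earlier results of these data known. The value of a gene is the average over every probe set annotated to it and to no other gene. This gave 10 of 18193 genes and 21 of 34945 probe sets. The discs came from 5 samples of immunized and 3 samples of naive female BALB/c mice, each sample being RNA from 6 pooled lumbar discs. Immunized mice had been injected on days 0, 21 and 42 with cartilage proteoglycan (100 µg of protein) emulsified with 2 mg of dimethyldioctadecyl-ammonium bromide as adjuvant. Naive mice, for which the labels list no injection, were of matched age, and the labels give neither that age nor the day of dissection. The descriptions of immunized replicate 1 and naive replicate 3 each join 2 sample numbers, and whether these hold RNA of more than 1 mouse was not given.

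Smooth muscle cells ring arteries and veins, and pericytes lie on capillaries, and together they are called mural cells. Their contraction rests on smooth muscle myosin, which is switched on when myosin light chain kinase phosphorylates its light chain, and on actin filaments held by calponin, transgelin and leiomodin. The transcription factor SRF, with its coactivators of the myocardin family, drives many of these genes through CArG boxes. Pericytes are recruited by platelet-derived growth factor B from endothelium, which binds the receptor encoded by Pdgfrb. A healthy disc has few vessels, and these lie in the outer annulus and along the endplates. Several of the genes are not restricted to mural cells: Cspg4 is also made by cartilage and nucleus pulposus cells, Des by skeletal muscle, Pdgfrb by fibroblasts and Acta2 by myofibroblasts.

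Each value is a log2 difference from the probe set's own median over the 8 arrays. A difference of 1 therefore stands for a doubling, and no level of a gene can be set against the level of another. How finely the deposited numbers are spaced reveals roughly how high a probe set's dimmest array was. Of the 21 probe sets of these genes, 13 had every array at 8 or more on the log2 scale, 8 had their lowest array between 4 and 8, and 0 went below 4. Across the whole array, 31.9% of probe sets had every array at 8 or more and 10.9% had an array below 4. The cartilage genes Acan, Col2a1 and Comp each had their only probe set at 8 or more on every array. Of the 3 probe sets of Sox9, 2 had every array at 8 or more and 1 had its lowest array between 4 and 8. The tissue was measured in bulk. Fewer mural cells, less RNA per mural cell and changes in the other cells sampled therefore cannot be told apart.

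Discs of immunized mice had lower expression of 2 of the 10 genes, Cspg4 and Lmod1, in limma's test over all genes (adjusted p under 0.05). In limma 0 of the 10 rose, and 0 were higher at an unadjusted p under 0.05, against 12.9% of all genes. Over all genes 4.68% were called lower in immunized discs, 4.46% higher and 9.14% in either direction. At an unadjusted p under 0.05, 4 of the 10 were lower (Cspg4, Lmod1, Cnn1 and Myh11), against 18.2% of all genes. The difference was below 0 in 9 of the 10, Rgs5 being the exception, against 56.1% of all genes. The median difference of the 10 genes was -0.43, beside -0.035 over all 18193 genes. In 3 genes (Cspg4, Cnn1 and Lmod1) all 5 immunized samples lay below all 3 naive samples, as they did in 14.0% of all genes. In 0 of the 10 did all immunized samples lie above all naive samples (9.39% of all genes; 23.4% did not overlap in either direction). Both calls were lost when any of immunized replicates 1 or 5 or naive replicates 1, 2 or 3 was left out, that of Lmod1 also without immunized replicate 3 and that of Cspg4 also without immunized replicate 4. The adjusted p then lay between 0.0511 and 0.0959 for Cspg4 and between 0.0553 and 0.111 for Lmod1, and the differences between -1.30 and -0.97 and between -0.56 and -0.41 over all 8 omissions.

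**Figure D1:**
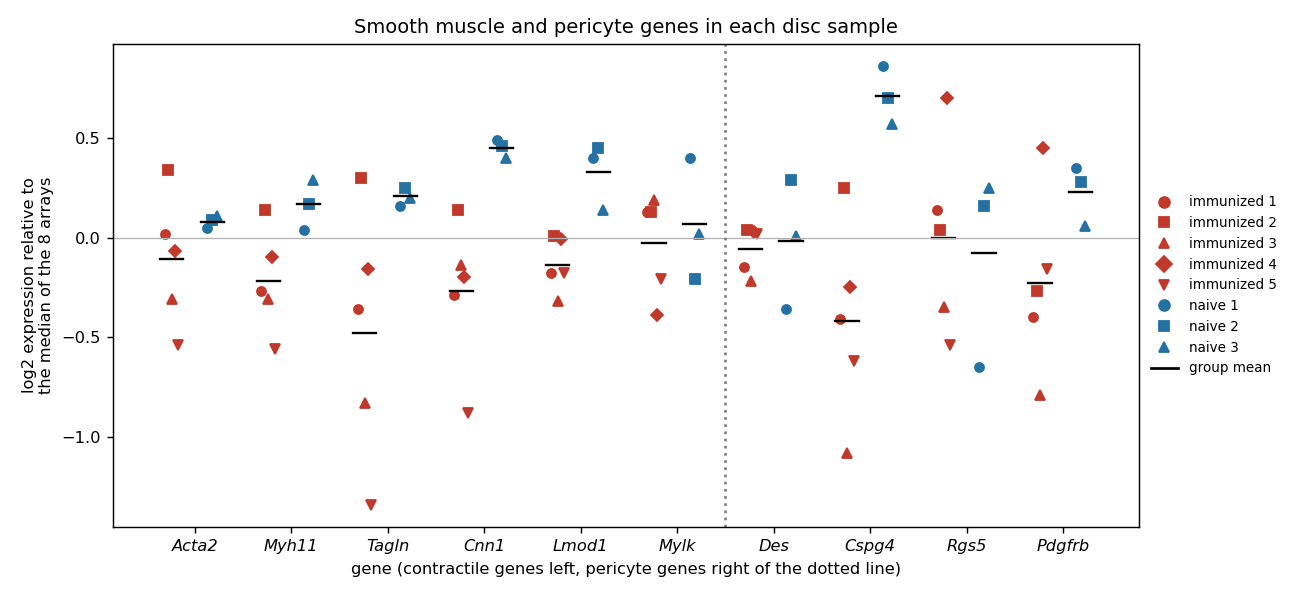
Expression of the 10 genes in each of the 8 disc samples, as log2 differences from the median array, with immunized samples (red, left) and naive samples (blue, right) for each gene and black bars for the group means. In Cspg4, Cnn1 and Lmod1 the 5 immunized points lie below the 3 naive points, and in the other 7 genes the groups overlap.

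The promoter windows of 4 of the genes are printed here because these genes frame the comparison: Cspg4 and Lmod1 passed the test, Cnn1 came closest to it among the others, and Acta2 is the standard smooth muscle marker whose groups overlapped. Each window runs from 250 bases before to 50 bases after the gene start in RefSeq (build GRCm38.p6, of strain C57BL/6J), 5′ to 3′ on the gene's strand. Capitals mark matches to a CArG box with at most 1 G or C inside its A/T run, and to the MCAT element CATTCC, a site for TEAD factors, on either strand. The windows lie at chr9:56864854-56865153 (plus strand) for Cspg4, chr1:135324563-135324862 (plus) for Lmod1, chr9:22099003-22099302 (plus) for Cnn1 and chr19:34255324-34255623 (minus) for Acta2.
Cspg4: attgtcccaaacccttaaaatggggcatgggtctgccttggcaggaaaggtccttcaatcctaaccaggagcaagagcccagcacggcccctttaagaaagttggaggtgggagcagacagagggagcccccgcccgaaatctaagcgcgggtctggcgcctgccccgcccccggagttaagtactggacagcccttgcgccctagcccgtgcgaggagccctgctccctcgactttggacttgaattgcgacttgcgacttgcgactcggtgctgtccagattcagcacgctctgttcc
Lmod1: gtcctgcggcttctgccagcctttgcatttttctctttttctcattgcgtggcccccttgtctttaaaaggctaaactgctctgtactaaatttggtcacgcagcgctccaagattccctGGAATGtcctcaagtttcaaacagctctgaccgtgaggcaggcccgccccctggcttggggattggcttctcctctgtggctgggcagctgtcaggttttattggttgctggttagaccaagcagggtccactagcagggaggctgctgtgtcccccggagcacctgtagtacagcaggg
Cnn1: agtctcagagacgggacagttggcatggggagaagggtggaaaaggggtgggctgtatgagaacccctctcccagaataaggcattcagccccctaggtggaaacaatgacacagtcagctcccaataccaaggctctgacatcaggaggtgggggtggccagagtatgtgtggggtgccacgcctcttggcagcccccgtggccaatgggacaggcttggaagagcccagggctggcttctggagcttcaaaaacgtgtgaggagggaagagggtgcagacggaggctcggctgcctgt
Acta2: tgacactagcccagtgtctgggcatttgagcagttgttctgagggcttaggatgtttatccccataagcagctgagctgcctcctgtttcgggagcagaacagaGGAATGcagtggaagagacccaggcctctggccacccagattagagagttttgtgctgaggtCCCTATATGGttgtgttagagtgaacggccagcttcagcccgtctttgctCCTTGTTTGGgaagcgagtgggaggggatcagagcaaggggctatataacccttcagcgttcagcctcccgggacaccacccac

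Windows of this table were searched for 7 of the 10 genes, and Tagln, Myh11 and Pdgfrb were not among them. A filter that left out 1 chromosome was applied to the 10 genes and not to the shares over all windows. A CArG box in the wider form was found in 1 of the 7, Acta2, which held 2 matches, CCCTATATGG and CCTTGTTTGG, starting 84 and 34 bases before the gene start. In this form the box occurs in 9.98% of the 32851 windows of the table, and in its strict form in 1.63% of them and in 0 of the 7. CATTCC on either strand was found in 3 of the 7 (Acta2, Lmod1 and Mylk), against 14.66% of all windows. These matches describe the letters in the windows only. Cspg4, the gene with the larger fall, had a match to neither motif, and Lmod1 had 1 match to CATTCC, 130 bases before the gene start.

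Leiomodin 1, encoded by Lmod1, nucleates actin filaments in smooth muscle. Its values were -0.18, 0.01, -0.32, -0.01 and -0.18 in immunized replicates 1 to 5, against 0.40, 0.45 and 0.14 in naive replicates 1 to 3. The groups did not overlap, the nearest samples being immunized replicate 2 and naive replicate 3. Lmod1 was lower in immunized discs by 0.47 on average (log2 difference -0.47 ± 0.11, SE, limma adjusted p = 0.0353), which is 0.724 of the naive level (95% interval 0.612 to 0.856). Its spread was small in both groups (SD 0.14 in immunized and 0.16 in naive samples). Lmod1 has a single probe set, whose lowest array lay between 4 and 8.

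Calponin 1, encoded by Cnn1, binds actin and restrains myosin in differentiated smooth muscle. Its values were -0.29, 0.14, -0.14, -0.20 and -0.88 in immunized replicates 1 to 5 and 0.49, 0.46 and 0.40 in naive replicates 1 to 3. All immunized samples lay below all naive samples, with immunized replicate 5 lowest and immunized replicate 2 nearest to the naive samples. The log2 difference was -0.72 ± 0.19 (SE), larger in size than that of Lmod1, but it missed the threshold in limma (adjusted p = 0.0506). Cnn1 passed in 2 of the 8 omissions of 1 sample, without immunized replicate 5 (-0.57 ± 0.11, adjusted p = 0.0475) and without immunized replicate 2 (-0.83 ± 0.17, adjusted p = 0.0184). Over all 8 omissions its adjusted p in limma ran from 0.0184 to 0.126.

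Transgelin, encoded by Tagln, is an actin cross-linking protein abundant in smooth muscle. Tagln measured -0.36, 0.30, -0.83, -0.16 and -1.34 in immunized replicates 1 to 5, against 0.16, 0.25 and 0.20 in naive replicates 1 to 3. The naive samples lay close together (SD 0.05), while immunized samples spread widely (SD 0.63), replicate 2 lying above every naive sample and replicate 5 far below. The log2 difference of -0.68 ± 0.31 (SE) did not pass in limma (adjusted p = 0.175), and its 95% interval was -1.40 to 0.03.

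Smooth muscle myosin heavy chain, encoded by Myh11, is the motor of the contractile apparatus. Myh11 measured -0.27, 0.14, -0.31, -0.10 and -0.56 in immunized replicates 1 to 5 and 0.04, 0.17 and 0.29 in naive replicates 1 to 3. Immunized replicate 2 lay among the naive samples and the other immunized samples below them. The log2 difference was -0.39 ± 0.15 (SE, limma adjusted p = 0.116), and without immunized replicate 2 it was -0.48 ± 0.12 and passed (adjusted p = 0.0337). This was 1 of the 8 omissions of 1 sample, over which the adjusted p in limma ran from 0.0337 to 0.266. Both probe sets of Myh11 had a negative difference, -0.60 for that with every array at 8 or more (1448962_at) and -0.18 for that whose lowest array lay between 4 and 8 (1418122_at).

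Smooth muscle alpha actin, encoded by Acta2, is the actin of contractile smooth muscle and of myofibroblasts. Its values were 0.02, 0.34, -0.31, -0.07 and -0.54 in immunized replicates 1 to 5, against 0.05, 0.09 and 0.11 in naive replicates 1 to 3. The immunized samples lay on both sides of the narrow naive range, replicate 2 above it and the other 4 below it. The log2 difference was -0.20 ± 0.17 (SE) and did not pass in limma (adjusted p = 0.477), with a 95% interval of -0.59 to 0.20. Of its 3 probe sets, 1416454_s_at, with every array at 8 or more, differed by -0.42, while 1444105_at and 1456658_at, whose lowest arrays lay between 4 and 8, differed by -0.08 and -0.09.

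Myosin light chain kinase, encoded by Mylk, is the enzyme that starts smooth muscle contraction. As the mean of 3 probe sets it measured 0.13, 0.13, 0.19, -0.39 and -0.21 in immunized replicates 1 to 5 and 0.40, -0.21 and 0.02 in naive replicates 1 to 3, with full overlap and a log2 difference of -0.10 ± 0.18 (SE; limma adjusted p = 0.736). The probe sets did not give the same picture. In 1425506_at, with every array at 8 or more, immunized samples measured 0.01, -0.03, -0.01, -0.08 and -0.07, against 0.40, 0.24 and 0.27 in naive samples, so that the groups did not overlap. This probe set was lower in immunized discs by 0.34 (log2 difference -0.34 ± 0.08, SE; limma over 45037 probe sets, adjusted p = 0.0395). In 1425505_at, whose lowest array lay between 4 and 8, values ranged from -1.05 to 0.59 in immunized and from -0.90 to 0.79 in naive samples, and the difference was 0.19 ± 0.46. The third probe set, 1425504_at, differed by -0.14 ± 0.09.

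**Figure D2:**
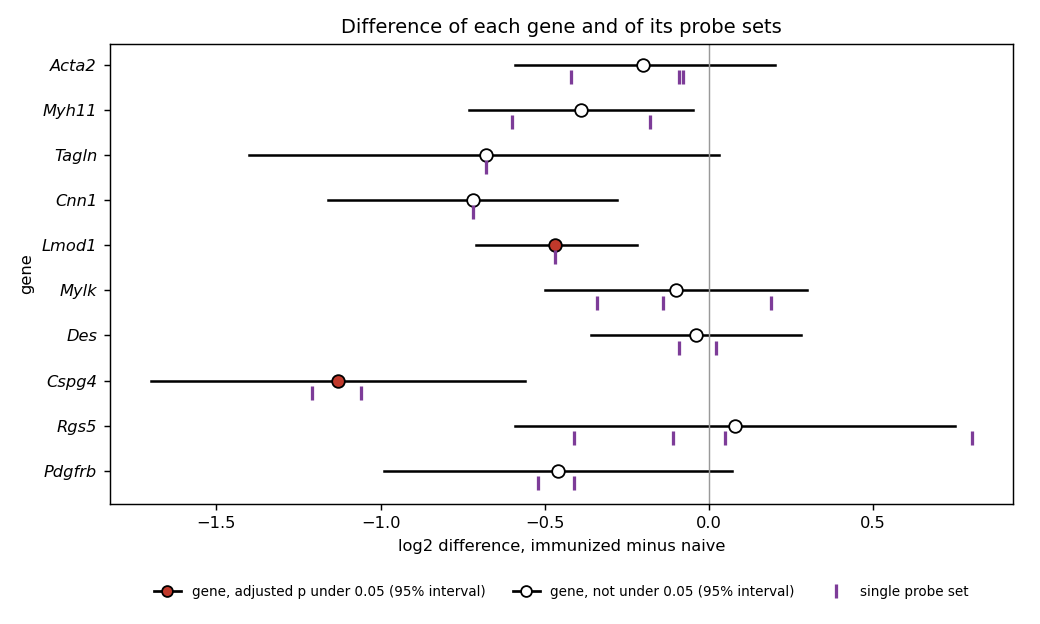
Log2 difference, immunized minus naive, of each of the 10 genes (circles, with limma's 95% intervals) and of each of their 21 probe sets (purple ticks). Filled circles, at -1.13 for Cspg4 and -0.47 for Lmod1, passed the threshold, and the probe sets of Rgs5, from -0.41 to 0.80, and of Mylk, from -0.34 to 0.19, lie on both sides of 0.

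Among the pericyte genes, Cspg4 encodes the proteoglycan NG2 of the cell surface. Cspg4 measured -0.41, 0.25, -1.08, -0.25 and -0.62 in immunized replicates 1 to 5, against 0.86, 0.70 and 0.57 in naive replicates 1 to 3. Every immunized sample lay below every naive sample, immunized replicate 3 lowest and replicate 2 nearest. The log2 difference was -1.13 ± 0.25 (SE, limma adjusted p = 0.0329), so that immunized discs had 0.456 of the naive level (95% interval 0.307 to 0.677). Both probe sets, each with every array at 8 or more, had a negative difference: 1450944_at fell by 1.21 (limma over all probe sets, adjusted p = 0.0318), and 1423341_at differed by -1.06 and missed the threshold (adjusted p = 0.0511). Among single probe sets 2.89% were called lower, and 6.19% in either direction.

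Pdgfrb encodes the receptor through which platelet-derived growth factor B holds pericytes on vessels. Its values were -0.40, -0.27, -0.79, 0.45 and -0.16 in immunized replicates 1 to 5 and 0.35, 0.28 and 0.06 in naive replicates 1 to 3. In immunized discs 4 samples lay below all naive samples and replicate 4 lay above them. The log2 difference of -0.46 ± 0.23 (SE) did not pass in limma (adjusted p = 0.210), and the 95% interval was -0.99 to 0.07.

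Rgs5 encodes a regulator of G-protein signalling that is abundant in pericytes. It measured 0.14, 0.04, -0.35, 0.70 and -0.54 in immunized replicates 1 to 5, against -0.65, 0.16 and 0.25 in naive replicates 1 to 3. The groups overlapped throughout, with immunized replicate 4 highest and naive replicate 1 lowest, and the log2 difference was 0.08 ± 0.30 (SE; limma adjusted p = 0.878; 95% interval -0.59 to 0.75). The low value of naive replicate 1 came mainly from 1420942_s_at, in which it measured -2.04, against -0.06 and 0.06 in naive replicates 2 and 3. The sign of the Rgs5 difference turned without naive replicate 1 (-0.21 ± 0.30), without immunized replicate 4 (-0.10 ± 0.25) and with the median of its probe sets (-0.03 ± 0.27). It also turned without probe sets ending in _x_at or _s_at (-0.18 ± 0.25), with array weights (-0.05 ± 0.21) and with only probe sets at 8 or more (-0.16 ± 0.26). The 4 probe sets of Rgs5 differed by 0.80 (1420942_s_at), 0.05, -0.11 and -0.41.

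Des encodes desmin, the intermediate filament of muscle cells and of many pericytes. Des measured -0.15, 0.04, -0.22, 0.03 and 0.02 in immunized replicates 1 to 5 and -0.36, 0.29 and 0.01 in naive replicates 1 to 3. The log2 difference was -0.04 ± 0.14 (SE; limma adjusted p = 0.877), with a 95% interval of -0.36 to 0.28. Skeletal muscle also makes desmin, and the mean of 20 skeletal muscle genes was lowest in naive replicate 1 (-0.55), as Des was, against 0.29 and 0.05 in naive replicates 2 and 3. That mean lay between -0.36 and 0.29 in immunized samples, with 0 of 20 genes called in limma (0 higher and 1 lower, unadjusted; Mb at -0.33 ± 0.13 and Myh4 at 0.71 ± 0.34, SE, had the largest t), and its part in the Des values was not tested.

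The samples differed in a way that many of these genes shared. Of the 10 genes, 4 had their lowest value in immunized replicate 5 and 3 in immunized replicate 3. All 6 contractile genes were below 0 in immunized replicates 4 and 5, and 0 of the 6 in immunized replicate 2. The mean of the 6 contractile genes was -0.16, 0.18, -0.29, -0.16 and -0.62 in immunized replicates 1 to 5, against 0.26, 0.20 and 0.19 in naive replicates 1 to 3. Immunized replicate 2 thus lay just under the naive range and replicate 5 farthest from it. The mean of the 4 pericyte genes was lowest in immunized replicate 3 (-0.61) and was 0.23 in immunized replicate 4, inside the naive range of 0.05 to 0.36.

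Markers of other tissues also differed among the samples of a group. The mean of 8 platelet and megakaryocyte genes was highest in immunized replicates 3 and 5 (0.97 and 0.72), which held the lowest contractile means. It lay between -0.30 and 0.22 in the other immunized samples and between -0.34 and 0.33 in naive samples, naive replicate 1 being the highest of these. The contractile means of naive replicates 1 to 3 lay close together (0.26, 0.20 and 0.19), naive replicate 1 having the highest of all 8 samples. Limma called 0 of the 8 (0 had an unadjusted p under 0.05); Ppbp and Gp6, with the largest t, differed by 0.41 ± 0.26 and 0.37 ± 0.25 (SE). The part of these cells in the values of the 10 genes was not tested.

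Disc and cartilage genes were also lower in immunized discs. Of 12 such genes 11 were measured, all 11 had a negative difference, and 4 fell in limma: Krt19, a nucleus pulposus keratin (-2.01 ± 0.36, SE), Col9a1 (-1.75 ± 0.44) and Col11a2 (-1.26 ± 0.27), collagen chains of cartilage, and Sox9, the transcription factor of chondrocytes (-0.83 ± 0.19). Limma called 4.68% of all genes lower. The mean of the disc and cartilage list was -0.43, 0.34, -0.90, -0.48 and -0.79 in immunized replicates 1 to 5 and 0.48, 0.62 and 0.73 in naive replicates 1 to 3. Immunized replicate 2 was highest and replicate 3 lowest among the immunized samples, as in Cspg4. None of the 11 passed (0 at an adjusted p under 0.05) without immunized replicate 1 or any of naive replicates 1, 2 and 3. From 1 to 3 passed without immunized replicate 3, 4 or 5, and 10 passed without immunized replicate 2 (3003 of all 18193 genes). How much of the Cspg4 difference belongs to cartilage cells and how much to mural cells was not tested.

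Of 19 measured genes in a wider list of smooth muscle markers, 4 fell and 0 rose in limma. Over all genes 4.68% were called lower and 4.46% higher. The median difference of this list was -0.31, and 16 of the 19 differences were below 0. The genes called were Prkg1, the cyclic GMP-dependent kinase that relaxes smooth muscle (-0.65 ± 0.15, SE, adjusted p = 0.0357), Smtn, encoding smoothelin (-0.53 ± 0.13, adjusted p = 0.0401), Ppp1r12b, a targeting subunit of myosin phosphatase (-0.32 ± 0.08, adjusted p = 0.0469), and Npnt. Npnt encodes nephronectin, a matrix ligand of integrin alpha 8 that is not part of the contractile apparatus, and differed by -0.96 ± 0.15 (adjusted p = 0.0160). All immunized samples lay below all naive samples in 6 of the 19 genes, these 4 among them, and above them in 0 (14.0% and 9.39% of all genes). After quantile normalization 1 of the 19 passed (908 of all 18193 genes), and 9 passed with array weights (5900 of all 18193 genes). Without immunized replicate 1, naive replicate 2 or naive replicate 3, 0 of the 19 passed in limma. Without immunized replicate 3, 4 or 5 or naive replicate 1, 1 passed in each case, and without immunized replicate 2, 7 passed (3003 of all genes).

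Transcription regulators of smooth muscle showed 0 of 12 genes called in limma (1 higher and 1 lower, unadjusted). Their median difference was -0.05. The 2 with the largest moderated t were Foxf1, a forkhead factor of visceral and vascular mesenchyme (-0.55 ± 0.16, SE, adjusted p = 0.0646), and Hey2, a Notch target of arterial cells (0.26 ± 0.09, adjusted p = 0.0871). Srf itself differed by -0.05 ± 0.11 and Myocd, encoding myocardin, by -0.19 ± 0.11, both named after their values were seen as the factors tied to the CArG box.

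Other pericyte genes had differences on both sides of 0. Of 17 measured, 0 passed in limma (2 higher and 5 lower, unadjusted), and their median difference was 0.11. Without immunized replicate 2, 4 passed (1 higher and 3 lower), against 3003 of all 18193 genes. With array weights 6 passed (2 higher and 4 lower), against 5900 of all 18193 genes. With a trended and robust variance 2 passed, both lower (1619 of all genes). Without probe sets that had an array below 4, 2 passed, both lower (1738 of 16927 genes). Ndufa4l2 and Cox4i2, mitochondrial proteins enriched in pericytes and also made under low oxygen, had the largest t. Ndufa4l2 measured -0.40, 0.40, -0.91, -0.87 and -1.31 in immunized replicates 1 to 5, against 0.55, 0.45 and 0.90 in naive replicates 1 to 3 (difference -1.25 ± 0.34, SE, limma adjusted p = 0.0508). Cox4i2 differed by -0.91 ± 0.25 (adjusted p = 0.0511). Neither overlapped between the groups, although immunized replicate 2 lay close to the naive samples in both. Of the 17 genes, 3 had all immunized samples below all naive samples and 2 had them above (14.0% and 9.39% of all genes). The 2 above were Gucy1b1 (0.73 ± 0.22, limma adjusted p = 0.0686) and Rgs4 (0.61 ± 0.19, adjusted p = 0.0733).

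**Figure D3:**
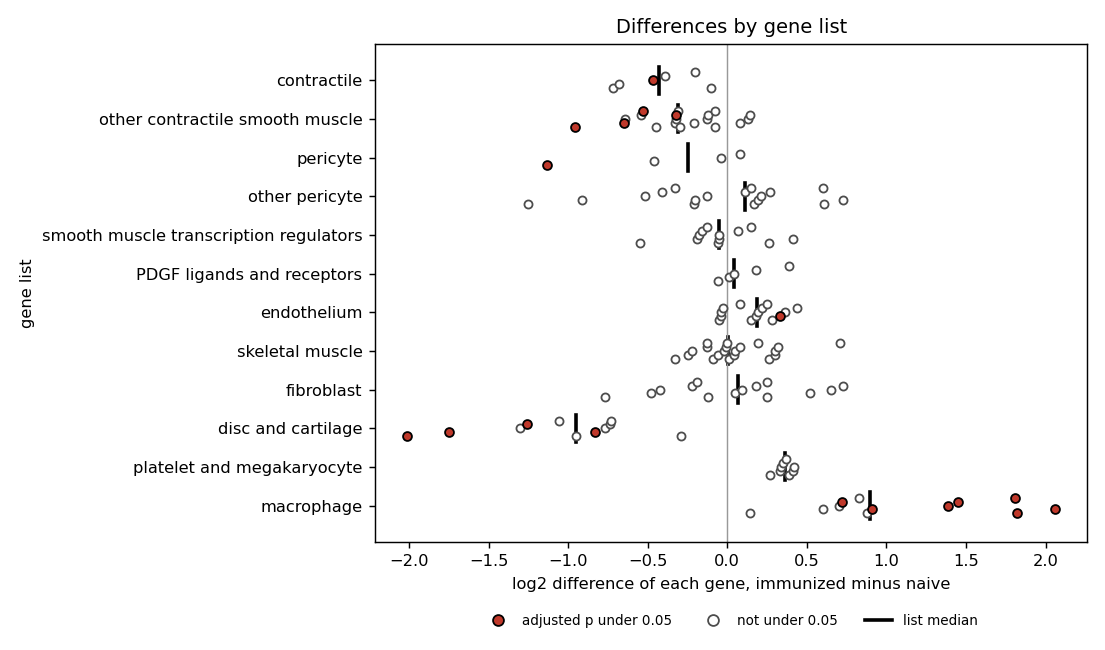
Log2 difference, immunized minus naive, of every measured gene in 12 lists, each point a gene (filled where it passed) and each black bar the list median. The medians are -0.43 for the 6 contractile genes, -0.31 for other contractile genes, 0.11 for other pericyte genes, 0.18 for endothelium and -0.95 for disc and cartilage genes.

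Ligands and receptors of the platelet-derived growth factor family other than Pdgfrb did not pass (0 of 5 in limma, 1 higher and 0 lower unadjusted). Pdgfb, the ligand that endothelium uses to hold pericytes, differed by -0.06 ± 0.15 (SE), and Pdgfa and Pdgfc, ligands of the alpha receptor, by 0.01 ± 0.21 and 0.04 ± 0.17. Pdgfd, a second ligand of the beta receptor, measured -0.04, -0.04, 0.01, 0.07 and 0.16 in immunized replicates 1 to 5, against -0.69, -0.18 and -0.19 in naive replicates 1 to 3. Its groups did not overlap, but the difference of 0.39 ± 0.12 missed the threshold (limma adjusted p = 0.0797). Pdgfra, a receptor of fibroblasts, differed by 0.18 ± 0.18. Of 19 genes of mural cell recruitment and vessel tone, Tgfbr1, a receptor of transforming growth factor beta, rose (0.85 ± 0.19, limma adjusted p = 0.0353), and 0 fell (5 higher and 3 lower, unadjusted). The share called higher over all genes was 4.46%. Without naive replicate 3 the list held 1 higher and 0 lower calls. Without immunized replicate 2 the list held 1 higher and 1 lower call, without immunized replicate 4 it held 0 higher and 1 lower, and 0 passed when any of the other samples was left out.

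Of 14 endothelial genes, Erg, an endothelial transcription factor, rose (0.33 ± 0.07, SE, limma adjusted p = 0.0322), and 0 fell (2 higher and 0 lower, unadjusted). The share called higher over all genes was 4.46%. The median of the endothelial list was 0.18, with 4 of the 14 differences below 0. With 1 sample left out 1 of the 14 passed without immunized replicate 2, 3 or 4, and 0 passed otherwise. The difference between the endothelial and the contractile list was not tested. The endothelial mean was highest in immunized replicate 4 (0.47), the sample in which Rgs5 (0.70) and Pdgfrb (0.45) were highest. It lay between -0.14 and 0.08 in the other immunized samples and between -0.16 and -0.04 in naive samples. The mean of 14 fibroblast genes was also highest in immunized replicate 4 (0.41), and limma called 0 of the 14 (unadjusted, 1 higher, Lum at 0.73 ± 0.20, and 1 lower, Fbln1 at -0.77 ± 0.27). The part of endothelial or fibroblast RNA in the Rgs5 and Pdgfrb values was not tested.

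Markers of macrophages and neutrophils were higher in immunized discs. Limma called 4.46% of all genes higher and 4.68% lower. Of 12 macrophage genes 7 rose in limma, among them Lyz2, encoding lysozyme (0.91 ± 0.13, SE), Itgam, encoding CD11b (1.81 ± 0.29), Adgre1, an adhesion receptor of macrophages (1.45 ± 0.26), and Mpeg1, encoding perforin-2 (1.39 ± 0.24), and of 8 measured neutrophil genes Cxcr2, Mmp8 and S100a9 rose, with 0 falls in either list. With 1 sample left out 0 to 7 genes passed in each list, with 0 macrophage genes without naive replicate 2 or 3 and 0 neutrophil genes without immunized replicate 1, 3 or 5 or naive replicate 2 or 3. The macrophage mean ran from 0.03 to 0.70 in immunized and from -0.88 to -0.50 in naive samples. The neutrophil mean ran from -0.09 to 0.60 in immunized and from -0.70 to -0.14 in naive samples. Schwann and oligodendrocyte lineage genes, which include other cells that can carry NG2, showed 1 of 8 lower (Ncmap, -1.15 ± 0.27, SE) and 0 higher, and their mean ran from -0.38 to 0.16 in immunized and from 0.15 to 0.50 in naive samples. Without immunized replicate 2, 3 of the 8 passed (3003 of all 18193 genes), and 0 passed when any other sample was left out or after quantile normalization. Limma called 0 of 6 measured adipocyte genes (unadjusted, 0 higher and 1 lower; Lipe at -0.39 ± 0.12 and Cidec at -0.66 ± 0.38 had the largest t), with list means of -0.74 to 0.53 in immunized and -0.20 to 0.23 in naive samples. The part of these cell types in the values of the 10 genes was not tested.

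**Figure D4:**
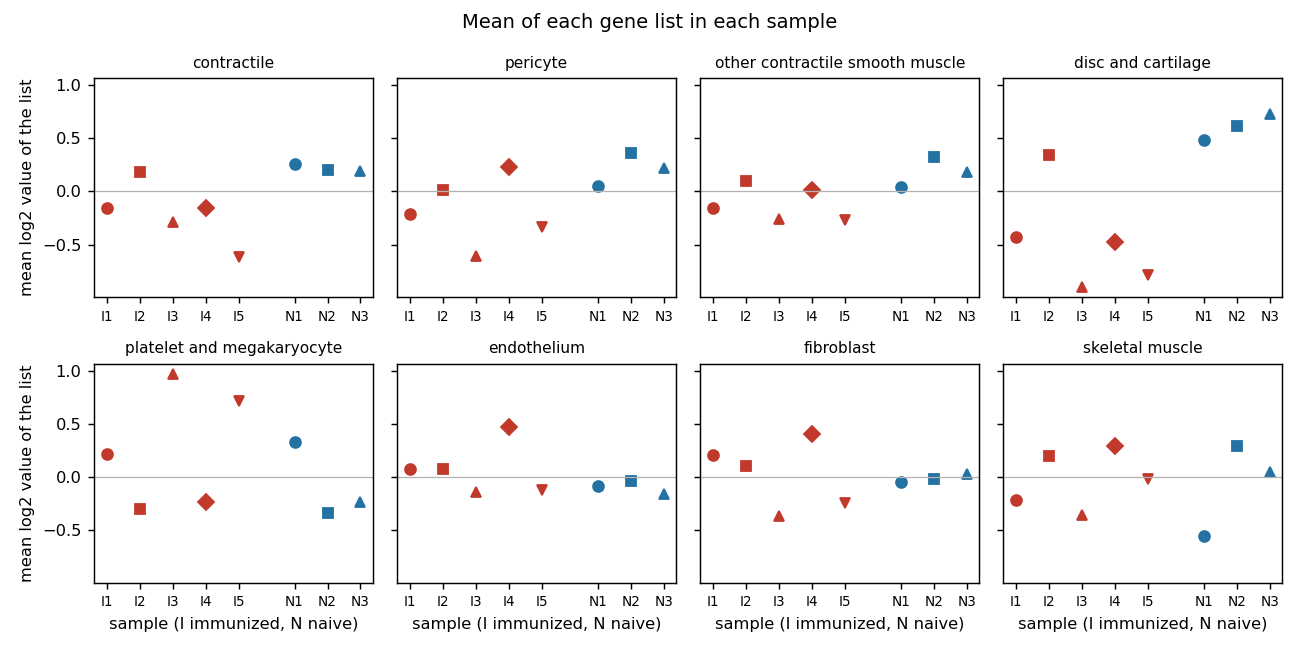
Mean log2 value of 8 gene lists in each sample, immunized samples (I1 to I5, red) left of naive samples (N1 to N3, blue). The contractile mean is lowest in I5 (-0.62), the pericyte and disc means in I3 (-0.61 and -0.90), where the platelet and megakaryocyte mean is highest (0.97), and I4 is highest in the endothelial and fibroblast means (0.47 and 0.41).

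Among all other genes, 5 lay closest to the mean of the 6 contractile genes by the mean absolute difference over the 8 samples. Cttn, encoding the actin-binding protein cortactin, had a mean absolute difference of 0.042 on the log2 scale, followed by Ablim1, an actin-binding LIM protein (0.043), Rtl8c (0.046), Myo1c, an unconventional myosin (0.050), and Srebf1, a transcription factor of lipid synthesis (0.053). Cttn measured -0.20, 0.15, -0.25, -0.14 and -0.68 in immunized replicates 1 to 5, against 0.21, 0.28 and 0.23 in naive replicates 1 to 3. The genes closest to Cspg4 were Mapre3, encoding a microtubule end-binding protein (mean absolute difference 0.069), and Plcd1, a phospholipase C (0.090), and those closest to Lmod1 were Cryl1 (0.044) and Sgtb (0.045).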

How the data were processed

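Per the labels' protocols, total RNA from 6 pooled lumbar discs per sample (2 to 5 µg) was made into biotinylated cRNA for Affymetrix arrays. The authors deposited log2 values, 1 for each array in each row; the submitters' processing notes name robust multi-array averaging (RMA), and no source used here gives its version. Every probe set has a median of 0 (to within 5.0e-07) across the arrays, so the deposited log2 values are differences from that median, a step the labels do not record. The table does not state the log base, which is taken to be RMA's. Array medians lay between -0.012 and 0.016, no batch was given, and precision is limited by the small number of arrays.

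Probe sets were named through the platform annotation, with symbols looked up in RefSeq (GRCm38.p6), which changed 0 symbols and did not hold the gene of 204 probe sets, whose symbols were kept. Of 45101 probe sets, 64 controls were left out, and of the other 45037, 34945 named 1 gene, 932 several and 9160 none. Each gene was the mean of its probe sets. Groups and replicate numbers came from the sample titles. Immunized were compared with naive samples with limma's moderated test (version 3.58.1 in R 4.3.3; lmFit, then eBayes; two-sided). Benjamini-Hochberg adjustment ran over all 18193 genes, and calls were made at an adjusted p under 0.05. The fit was checked on simulated data. The 10 genes and all lists were chosen with earlier results of these data known. Genes named from a list were up to 4 called genes with the largest moderated t, or the 2 with the largest t where none passed. All ligands and receptors of the platelet-derived growth factor family were named, as were the genes closest to the contractile mean (5) and to each called gene (2 each). Further genes named, namely Srf, Myocd, Gucy1b1 and Rgs4, were chosen after their values were seen. Alternatives covered normalization, probe set choice, variance model, array weights, the replicate block, omitted samples and thresholds; level-based probe set filters and the joint omission of 3 samples were added after seeing the data.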

Additional observations from a re-analysis of the deposited data

Results flagged for a closer look

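In the 5 immunized samples, 66 sets of values (of the 10 genes, their probe sets and the named list genes) were searched for a sample far from the rest, with a gap to the nearest sample of over 0.71 of the whole range; chance marks about 1 in 20 such sets. It was met once, by Lyz2, the macrophage lysozyme gene, in which immunized replicate 2 measured -0.17 and the nearest other immunized sample 0.17. None of the 10 smooth muscle and pericyte genes met it.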

How the results depend on the processing

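The calls depended on the samples and on the setting. Of the 10 genes, 2 were called with all samples and 0 to 4 with 1 sample left out (21 to 3003 of all genes, against 1663, of which 812 higher and 851 lower). The count was 1 after quantile normalization (908 of all genes, 540 higher and 368 lower), 4 with array weights (5900), 0 without both samples whose descriptions join 2 numbers (0), 0 without naive replicate 1 and immunized replicates 3 and 5 together (218; these samples were chosen after their platelet marker means were seen and hold the 2 lowest immunized values and the highest naive value of Cspg4, so a smaller Cspg4 difference, -0.77 ± 0.20, followed from the choice) and 0 at an adjusted p under 0.01 (54); at 0.1 it was 3, with 3783 of all genes. Where 0 of the 10 passed in limma, 3 or 4 had an unadjusted p under 0.05. With only probe sets at 8 or more on every array, 1066 of 8441 genes were called. Of the 10 genes, 8 were measured in that setting, Lmod1 and Cnn1 not among them, and 2 were called, Cspg4 and Mylk. With the replicate number as a replicate block 0 of the 10 and 7 of all genes were called (Cspg4 -1.12 ± 0.24, adjusted p = 0.115; Lmod1 -0.50 ± 0.10, adjusted p = 0.112). The titles do not state that the numbers pair animals, so the numbers were not taken to pair samples. The deviations of same-numbered samples correlated at -0.05, 0.24 and -0.10. Those of differently numbered samples ran from -0.38 to 0.33, so these correlations could not decide on pairing. Cspg4 stayed negative in every setting run, between -1.30 and -0.97 with 1 sample left out. Lmod1 stayed negative in every setting that measured it, between -0.56 and -0.41 with 1 sample left out.

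Differences near 0 changed sign. With 1 sample left out Rgs5 ran from -0.21 to 0.25 and Mylk from -0.24 to 0.07. Rgs5 was -0.18 without probe sets ending in _x_at or _s_at, -0.03 with the median of its probe sets, -0.05 with array weights, -0.10 without immunized replicate 4, -0.21 without naive replicate 1 and -0.16 with probe sets at 8 or more. Mylk was 0.12 with array weights, 0.08 with the block, 0.07 without naive replicate 1 and 0.05 without the 3 samples together; it was -0.34 and called with its probe set at 8 or more. Des was 0.12 without naive replicate 2 and 0 to 2 decimals without the samples with joined numbers or immunized replicate 3. The cause was not tested.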
